A study of Mus musculus with 12 samples.

Results

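Claudins are small membrane proteins that cross the cell membrane several times and assemble into the strands of the tight junction, the seal between neighbouring epithelial or endothelial cells. Some members tighten that seal, others form channels that let small cations and water pass between the cells, and the mix of members sets how leaky an epithelium is. In the colon, sealing members are found along the crypts and surface epithelium, whereas channel-forming members are more typical of crypts and of more proximal gut. The genes described here are 10 claudin genes, Cldn1, Cldn2, Cldn3, Cldn4, Cldn5, Cldn7, Cldn8, Cldn12, Cldn15 and Cldn23, chosen by name from the 35 claudin genes among the 54532 genes of the deposited count table. All 10 passed the filter on low counts, which left 16904 genes, and Cldn1 passed only through the groups in which its counts were higher. In each of the 12 libraries these 10 genes held at least 99.5% of all claudin FPKM, the count scaled for gene length and library size.

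RNA-Seq was performed on pieces of colon from 12 wild-type male C57BL/6J mice, 5 weeks old at the start, with 3 mice in each of 4 groups. Control mice were not given dextran sodium sulfate (DSS), which is taken in drinking water and injures the colonic epithelium, and model mice were given DSS alone. The Rhy group received DSS and rhynchophylline (Rhy), an alkaloid, at a dose that is not stated for the sequenced mice, and the DXM group received DSS and the glucocorticoid dexamethasone at 4 mg/kg. No group received a drug without DSS, so a drug and DSS cannot be told apart in a comparison of either drug group with control, and where along the colon each piece was cut is not stated.

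The libraries held 14346478 to 17749716 counts each. The share of counts on mitochondrial genes ran from 6.33% in control 3 to 25.7% in DXM 1, with 21.0% in control 1 and 23.8% in Rhy 1. Its part in the results was not tested. All 13 colon epithelial markers were detected in every library, with Epcam at 1144 CPM or more (CPM is the count scaled to library size, with library sizes scaled by the TMM method). Hoxb13, a gene of the most distal gut, was at 0 to 1.49 CPM in control 3, model 3 and Rhy 1 and at 72.0 to 316 CPM in the other 9 libraries, and its part in the results was not tested except as the alternatives state. Model 1 and model 2 were much more alike than any other pair, with a common dispersion of 0.00201 against 0.0604 to 0.351 in the other 65 pairs, so the model group holds less independent information than its 3 mice imply. Nothing states whether the RNA of each mouse was prepared separately, and p-values measure the spread between these libraries.

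The study follows Rhy through the aryl hydrocarbon receptor (AhR), whose binding sites share the core letters GCGTG, and through the nuclear receptor NR4A1, which can bind AAAGGTCA. Because Cldn4 is the claudin the study measures as protein, its promoter is shown first. Cldn3, its neighbour on chromosome 5, and Cldn7 are shown because those 2 genes carried most of the claudin transcripts and had like patterns across the libraries. The lines give the 250 bases before the annotated start, 5′ to 3′ on the strand of the gene, from RefSeq on GRCm38.p6, with GCGTG in capitals.
Cldn4, minus strand, chr5:134946935-134947184: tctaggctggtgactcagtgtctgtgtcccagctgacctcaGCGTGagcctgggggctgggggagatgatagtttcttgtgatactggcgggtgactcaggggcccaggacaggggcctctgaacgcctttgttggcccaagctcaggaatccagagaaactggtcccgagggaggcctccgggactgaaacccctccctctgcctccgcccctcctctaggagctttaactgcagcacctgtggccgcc
Cldn3, plus strand, chr5:134985964-134986213: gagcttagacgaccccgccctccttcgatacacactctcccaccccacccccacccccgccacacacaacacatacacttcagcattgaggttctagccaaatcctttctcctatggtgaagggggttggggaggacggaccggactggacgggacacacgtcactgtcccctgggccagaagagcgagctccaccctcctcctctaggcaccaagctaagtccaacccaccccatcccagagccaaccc
Cldn7, plus strand, chr11:69964529-69964778: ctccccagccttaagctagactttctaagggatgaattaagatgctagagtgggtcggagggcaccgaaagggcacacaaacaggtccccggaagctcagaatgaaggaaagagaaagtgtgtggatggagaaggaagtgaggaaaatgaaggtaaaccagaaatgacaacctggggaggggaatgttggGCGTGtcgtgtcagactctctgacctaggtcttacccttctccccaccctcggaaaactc
The Cldn4 stretch held the core 209 bases before the start, the Cldn7 stretch held it 60 bases before the start, and the Cldn3 stretch did not hold these letters. Read on both strands over windows of 300 bases (250 before to 50 after the start), GCGTG was found in 5 of 11 windows of the 8 claudin genes with a window, belonging to Cldn4, Cldn7 and Cldn12, and in 32.4% of all 32851 promoter windows. The Cldn12 windows with these letters overlap and hold the same match, 100 and 227 bases before their starts, so it is counted more than once. By gene, 3 of the 8 held the letters. The letters AAAGGTCA were in 0 of the 11 windows and in 1.51% of all windows. These matches describe letters in a window and are not binding sites.

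Compared per gene length, the claudin pool of the colon was mostly Cldn3 and Cldn7. Cldn3, a sealing claudin, stood at 370.2 to 1445 FPKM and Cldn7, which lies along the lateral membrane of intestinal cells as well as at the junction, at 326 to 833 FPKM. Cldn3 was above Cldn7 in all 12 libraries, although the ranges of these neighbours overlapped, and together they made up 79.3% to 93.5% of the claudin FPKM. A wide step separated them from Cldn4, a sealing claudin, with a median of 48.9 FPKM. Cldn15 followed at a median of 30.9 FPKM, Cldn23 at 28.9 FPKM, Cldn2 at 22.5 FPKM, Cldn8 at 11.7 FPKM and Cldn12 at 8.48 FPKM. These 6 genes, Cldn4 included, had ranges that overlapped with their neighbours in the order, and Cldn12 overlapped with Cldn5 as well. Cldn5, the claudin of blood vessel endothelium, had a median of 2.97 FPKM and lay above Cldn1, at 0.127 FPKM, without overlap.

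**Figure D1:**
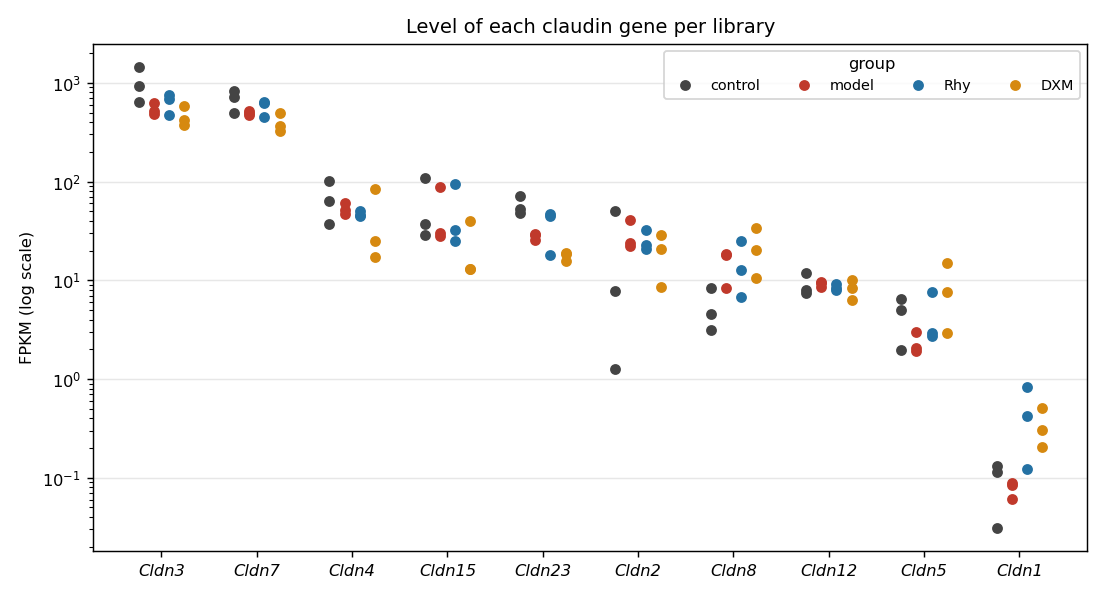
Level of each claudin gene in FPKM (log axis), with 1 point per library coloured by group and genes ordered by their median. Cldn3 and Cldn7 lie between 326 and 1445 FPKM in all 12 libraries, Cldn1 lies under 1 FPKM, and Cldn2 has the widest spread.

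The summed FPKM of all claudin genes was 1430 to 2436 in the control group, 1117 to 1386 in the model group, 1086 to 1611 in the Rhy group and 863 to 1229 in the DXM group. In FPKM, the model and DXM libraries all lay below the control libraries, while the Rhy libraries overlapped with them. The model gap was narrow, with model 3 at 1386 and control 3 at 1430. Cldn3 and Cldn7 summed were at 1146 FPKM in model 3 and 1135 FPKM in control 3, so for that pair the model and control groups overlapped. The members outside Cldn3 and Cldn7 had very different shares of that pool from library to library. The channel-forming pair Cldn2 and Cldn15 made up 1.22% of it in control 1, 2.41% in control 2 and 11.2% in control 3, a range that held all 9 DSS-exposed libraries (1.74% to 9.37%).

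**Figure D2:**
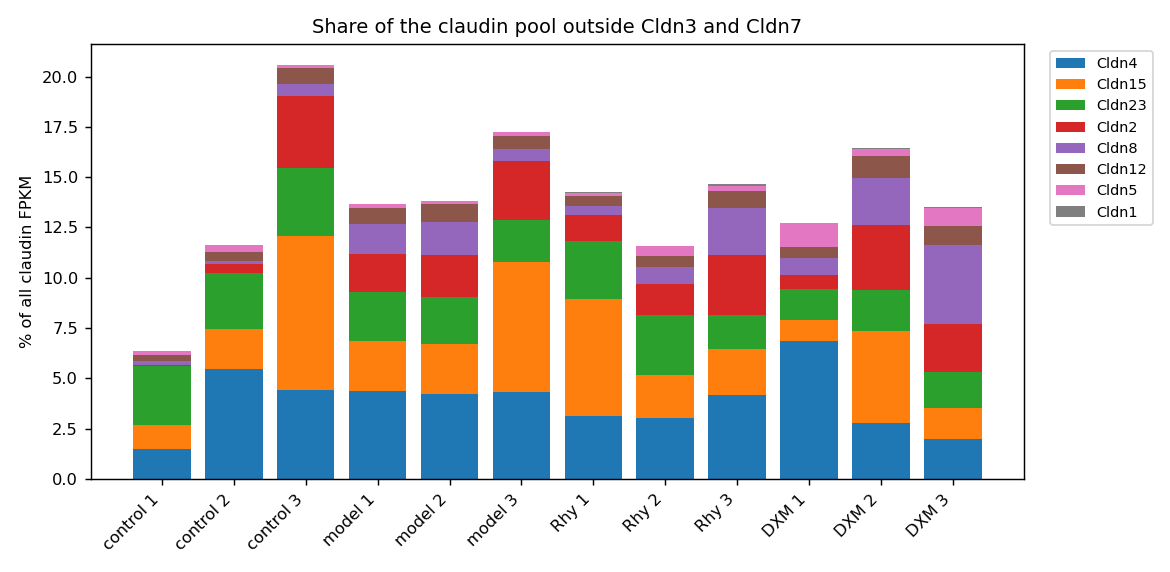
Share of all claudin FPKM taken by each member other than Cldn3 and Cldn7, as stacked bars for the 12 libraries. The share of Cldn2 and Cldn15 together is lowest in control 1 (1.22%) and highest in control 3 (11.2%).

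Across the 6 comparisons, no claudin passed an adjusted p of 0.05 with edgeR's quasi-likelihood test, and neither did any of the 16904 genes. At an unadjusted p under 0.05, the comparison of model against control called 3 of the 10 genes, against 9.62% of all genes, and 0% of all genes at the adjusted threshold. For Rhy against model it called 1 of 10, Cldn1, against 3.72% of all genes, with 0% after adjustment, and for DXM against model 3 of 10 against 7.69%, with 0% after adjustment. For Rhy against control it called 2 of 10 against 11.6% of all genes, with 0% after adjustment, and for DXM against control 5 of 10 against 18.9%, with 0% after adjustment. The mean of the 3 DSS-exposed groups against control called 4 of 10 against 17% of all genes, with 0% after adjustment. Cldn1 was also among those called for DXM against model and for either drug group against control, and its count there is no support for a difference, because it passed the filter through the drug groups. Groups that did not overlap were 2 of 10 for model against control (17% of all genes), 1 for Rhy against model (11.5%), 2 for DXM against model (22.6%), 1 for Rhy against control (12.3%), 4 for DXM against control (18.7%) and 1 for the DSS-exposed groups together against control (3.28%). Cldn1 was the 1 gene for Rhy against model and was among those for DXM against model and DXM against control. For the reason given above, it is no support for a difference in these counts either. Cldn8 was among those for model against control, but in FPKM its groups overlapped there. The comparisons share the control or the model libraries and are not independent of each other. The median log2 fold change of the 10 genes was -0.25 for model against control, 0.09 for Rhy against model, -0.31 for DXM against model, -0.13 for Rhy against control, -0.37 for DXM against control and -0.25 for the DSS-exposed groups together, where the median over all genes lay between -0.03 and 0.06. DESeq2 called 4 claudins at an adjusted p under 0.05 for DXM against control (Cldn3, Cldn7, Cldn8 and Cldn23), beside 3.54% of the 29929 genes it tested, and 3 for the DSS-exposed groups together (Cldn3, Cldn8 and Cldn23), beside 2.5%. In the other 4 comparisons DESeq2 called 0 claudins, and limma called 0 in all 6.

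**Figure D3:**
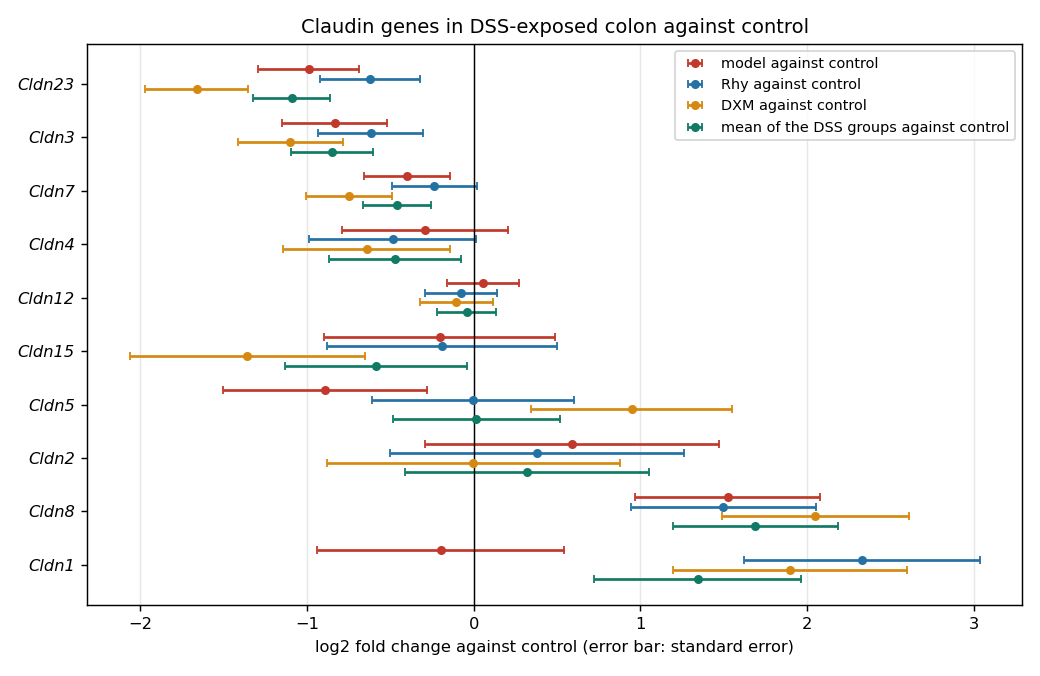
Log2 fold change against control of each claudin gene (x axis, error bars are standard errors) for the model, Rhy and DXM groups and for the mean of the DSS-exposed groups, from edgeR with all 12 libraries. Cldn23 and Cldn3 lie below 0 and Cldn8 above 0 in each comparison, whereas Cldn12 lies near 0.

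Among the sealing claudins, Cldn23, a member associated with differentiated surface colonocytes, was lower in every DSS-exposed library than in every control library (gene on chromosome 8, minus strand, from 35824712 to 35826559 in the count table). Its level was 132, 95.3 and 88.3 CPM in control mice 1 to 3, and 54.6, 49.2 and 55.2 CPM in model mice. It was 86.6, 84.6 and 33.7 CPM in Rhy mice and 35.5, 34.5 and 29.8 CPM in DXM mice. The DXM libraries also all lay below the model libraries, while Rhy 1 and Rhy 2 lay just under the lowest control library and Rhy 3 lay among the DXM libraries. The log2 fold change was -0.99 ± 0.30 (SE, n = 3 against 3) for model against control (edgeR adjusted p = 0.459), -0.62 ± 0.30 for Rhy against control (edgeR adjusted p = 0.449) and -1.66 ± 0.31 for DXM against control (edgeR adjusted p = 0.128). For the DSS-exposed groups together it was -1.09 ± 0.23 (edgeR adjusted p = 0.137), and the two-sided exact permutation test of 9 against 3 libraries gave p = 0.00455, the smallest value this design allows. For DXM against model it was -0.67 ± 0.30 (edgeR adjusted p = 0.646), and an unadjusted p under 0.05 was lost when any 1 library of either group was left out. The Rhy difference from control rested on Rhy 3 and was -0.30 without it. Its unadjusted p was under 0.05 without Rhy 1 (16.3% of all genes), Rhy 2 (6.87%) or control 3 (16.9%). Without Rhy 3, Cldn23 was called for Rhy against model at that threshold, beside 3.75% of all genes. With 3 against 3 libraries an exact test cannot go below p = 0.1, and exact p-values are given here unadjusted. In bulk tissue, fewer cells of a type and less RNA per cell cannot be told apart. The summed level of the 13 epithelial markers was 21776 to 31630 CPM in the control group, 20556 to 23979 CPM in the model group, 25732 to 28296 CPM in the Rhy group and 19445 to 23114 CPM in the DXM group. As a percentage of that sum, Cldn23 was still without overlap, at 0.352% to 0.418% in control libraries and 0.119% to 0.336% in the 9 DSS-exposed libraries. With that level as a covariate, an alternative added after the data were seen, the difference was -0.82 for model against control, where an unadjusted p under 0.05 was lost, -1.45 for DXM against control and -0.96 for the DSS-exposed groups together, where it was kept.

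Cldn3 (chromosome 5, plus strand, 134986214 to 134987472) had the same direction. Its level was 1813, 1149 and 798 CPM in control mice, 678, 632 and 801 CPM in model mice, 967, 882 and 599.9 CPM in Rhy mice, and 738, 476 and 539 CPM in DXM mice. The DXM libraries lay below all control libraries, whereas model 3, Rhy 1 and Rhy 2 lay above control 3. The log2 fold change was -0.83 ± 0.31 for model against control (edgeR adjusted p = 0.482), -1.10 ± 0.32 for DXM against control (edgeR adjusted p = 0.134) and -0.85 ± 0.24 for the DSS-exposed groups together (edgeR adjusted p = 0.143; exact permutation p = 0.0182). Without control 1 the model difference was -0.47 and that of the DSS-exposed groups together was -0.49, and the unadjusted p was no longer under 0.05 in either. For model against control it was also lost without model 1 (-0.81) or model 2 (-0.76). With the summed epithelial level as a covariate, the difference was -0.25 for model against control, -0.40 for DXM against control and -0.41 for the DSS-exposed groups together, and an unadjusted p under 0.05 was lost in all 3. It was also lost for model against control with model 1 and model 2 summed (-0.78) and with the replicate number as a block in a fit of only the control and model libraries (-0.76). For Rhy against control, Cldn3 was not called without a covariate. There the epithelial covariate gave it an unadjusted p under 0.05, beside 14.1% of all genes. So did DESeq2 (7.90%) and the fits without the libraries low in Hoxb13 (21.5%) or without control 3 (16.9%).

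Cldn7 (chromosome 11, plus strand, 69964779 to 69967885) had a within-group SD of 0.28 on the log2 CPM scale, against 0.39 for Cldn3. Its level was 1616, 1386 and 953 CPM in control mice, 999, 955 and 1043 CPM in model mice, 1218, 1254 and 885 CPM in Rhy mice, and 972, 729 and 653 CPM in DXM mice. Only DXM 1 of the DXM libraries reached the lowest control library. The log2 fold change was -0.75 ± 0.26 for DXM against control (edgeR adjusted p = 0.168) and -0.46 ± 0.20 for the DSS-exposed groups together (edgeR adjusted p = 0.276; exact permutation p = 0.0636). The unadjusted p of the former was lost without DXM 3 (-0.63), and that of the latter without any 1 of control 1, control 2, model 1, model 2, Rhy 3, DXM 2 or DXM 3, with values of -0.29 (control 1) to -0.46 (model 1). With the epithelial level as a covariate the DXM difference was -0.29 and that of the DSS-exposed groups together was -0.18, and both calls were lost. The latter was also lost with upper-quartile scaling (-0.42), with any gene that had a count kept (-0.45) and with model 1 and model 2 summed (-0.46).

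Cldn8, a sealing claudin of the distal colon that limits the back-leak of sodium (chromosome 16, minus strand, 88560828 to 88563183), had the opposite direction. Its level was 10.8, 7.30 and 19.5 CPM in control mice, 43.8, 44.5 and 20.0 CPM in model mice, 16.1, 30.4 and 59.8 CPM in Rhy mice, and 25.3, 49.2 and 81.4 CPM in DXM mice. In CPM, all model and DXM libraries lay above all control libraries, and Rhy 1 lay among the controls. Model 3 exceeded control 3 by little in CPM, and lay below it in reads (336 against 355) and FPKM (8.31 against 8.36). As a percentage of the summed epithelial markers, Cldn8 was also lower in model 3 (0.0835%) than in control 3 (0.0895%). On those scales the model and control groups overlapped. The log2 fold change was 1.52 ± 0.56 for model against control (edgeR adjusted p = 0.479), 1.50 ± 0.56 for Rhy against control (edgeR adjusted p = 0.367), 2.05 ± 0.56 for DXM against control (edgeR adjusted p = 0.130) and 1.69 ± 0.49 for the DSS-exposed groups together (edgeR adjusted p = 0.146; exact permutation p = 0.00909). Control 3, model 3 and Rhy 1, where Cldn8 was at 16.1 to 20.0 CPM, are the libraries low in Hoxb13. The other 9 libraries, at 7.30 to 81.4 CPM, lay on both sides of that range, so Cldn8 did not separate the sets. Without the 3 libraries low in Hoxb13 the differences were 2.25 for model and 2.31 for Rhy against control. With the Hoxb13 level as a covariate they were 1.31 and 1.30, and the unadjusted p for model was no longer under 0.05, nor was it with model 1 and model 2 summed (1.36). For model against control an unadjusted p under 0.05 was lost without any 1 of control 1 (1.42), control 2 (1.25), model 1 (1.36) or model 2 (1.35), and for Rhy against control without control 1 (1.40), control 2 (1.23) or Rhy 3 (0.89). With the epithelial level as a covariate the difference was 0.89 for model and 1.23 for DXM against control, and both calls were lost. With the same covariate the call was kept for Rhy against control (14.1% of all genes) and for the DSS-exposed groups together (1.27, beside 12.8%).

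**Figure D4:**
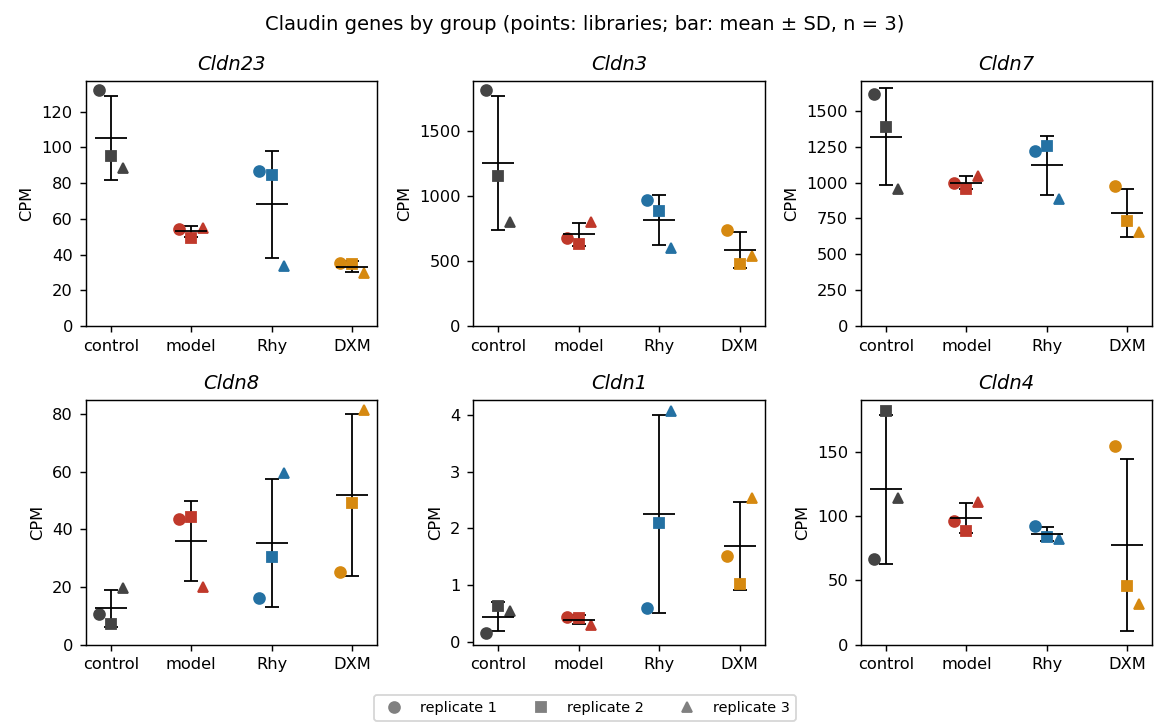
Level in CPM (y axis, linear) of 6 sealing claudins in the 4 groups, with a marker shape for each replicate number and the mean ± SD (n = 3). Cldn23 lies at 88.3 CPM or more in the control libraries and at 86.6 CPM or less in the others, and Cldn8 lies at 19.5 CPM or less in the control libraries.

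Cldn4 (chromosome 5, minus strand, 134945119 to 134946934), a sealing claudin, had a within-group SD of 0.70 on the log2 CPM scale. With all 12 libraries, no log2 fold change was larger than that SD in any comparison. Its level was 66.5, 183 and 114 CPM in control mice, 96.4, 88.6 and 112 CPM in model mice, 92.8, 84.2 and 82.4 CPM in Rhy mice, and 155, 46.0 and 32.0 CPM in DXM mice. The control libraries spanned the whole model and Rhy groups, and DXM 1 stood far above DXM 2 and DXM 3. The log2 fold change was -0.29 ± 0.50 for model against control (edgeR adjusted p = 0.879), -0.19 ± 0.50 for Rhy against model (edgeR adjusted p = 1.00) and -0.35 ± 0.50 for DXM against model (edgeR adjusted p = 0.876). It was -0.49 ± 0.50 for Rhy against control (edgeR adjusted p = 0.721), -0.64 ± 0.50 for DXM against control (edgeR adjusted p = 0.505) and -0.47 ± 0.40 for the DSS-exposed groups together (edgeR adjusted p = 0.570; exact permutation p = 0.341). These values turned on single libraries. The model difference was 0.13 without control 2 and -0.59 without control 1, and the DXM difference from model was 0.02 without DXM 3 and -1.34 without DXM 1. From control, the Rhy difference was -0.06 without control 2 and -0.78 without control 1, the DXM difference was -0.22 without control 2 and -1.63 without DXM 1, and that of the DSS-exposed groups together was -0.05 without control 2, -0.77 without control 1 and -0.80 without DXM 1. Without DXM 1 the unadjusted p was under 0.05 in the 3 comparisons that use the DXM group, where 8.17% (from model) to 20.9% (from control) of all genes were called. The Rhy difference from model was -0.07 without model 3, and the DXM difference was -0.08 from model and -0.37 from control without DXM 2, and -0.27 from control without DXM 3.

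Cldn1, a sealing claudin that is abundant in skin, was near the limit of detection in colon. It had 2 to 10 reads in each control and model library, so that its level was 0.150, 0.626 and 0.549 CPM in control mice and 0.441, 0.425 and 0.298 CPM in model mice. It was 0.599, 2.09 and 4.07 CPM in Rhy mice (7, 32 and 72 reads) and 1.51, 1.01 and 2.53 CPM in DXM mice (22, 21 and 50 reads). In CPM, both drug groups lay above the model group without overlap, and Rhy 1 lay below control 2. In reads, Rhy 1 (7) did not exceed model 1 (8). Differences on the log2 scale were 2.53 ± 0.71 for Rhy against model, 2.10 ± 0.71 for DXM against model, 2.33 ± 0.71 for Rhy against control and 1.90 ± 0.70 for DXM against control. They are given as a description, since the gene was kept for testing through the drug groups, and in fits of only the groups compared it did not pass the filter for Rhy against model or Rhy against control. On the log2(FPKM + 1) scale, which compresses low values, these 4 differences were 0.41, 0.31, 0.39 and 0.29, and on the log2(FPKM + 0.1) scale the first of them was 1.43. When Rhy 3 was left out, the Rhy differences fell to 1.79 from model and 1.59 from control. Without DXM 3 the DXM differences were 1.67 from model and 1.48 from control.

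Cldn12, which lacks the C-terminal motif by which most claudins hold the ZO scaffold proteins, was the steadiest member. Its level was 31.3, 33.6 and 50.1 CPM in control mice, 40.9, 41.7 and 36.9 CPM in model mice, 36.0, 34.4 and 38.7 CPM in Rhy mice, and 27.0, 43.6 and 36.4 CPM in DXM mice. Its groups overlapped in all 6 comparisons. Its within-group SD of log2 CPM was 0.26, and 22.4% of all genes had a smaller one, with a median of 0.42 over all genes.

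The channel-forming claudins were those that varied most between mice of the same group. Cldn2, which forms a pore for sodium and water, was at 4.19, 25.7 and 167 CPM in control mice, 76.1, 81.6 and 139 CPM in model mice, 70.1, 77.3 and 109 CPM in Rhy mice, and 28.7, 97.1 and 71.0 CPM in DXM mice. The control libraries alone spanned the range of all other libraries. Its within-group SD of log2 CPM was 1.43, larger than that of 97.2% of all genes. The share of counts on mitochondrial genes was 21.0%, 17.0% and 6.33% in control mice 1 to 3, where Cldn2 was lowest at the highest share. Rhy 1 (23.8%) and DXM 1 (25.7%) also had the highest share and the lowest Cldn2 of their groups. In the model group, model 2 had the highest share (14.0%) and model 1 the lowest Cldn2. This was not particular to Cldn2. Cldn3 and Cldn23 were highest of their groups in control 1, Rhy 1 and DXM 1, which held the highest shares. In the model group both were highest in model 3, at the lowest share (11.1%). Cldn8 was lowest of its group in Rhy 1 and DXM 1, but not in control 1 or model 2. The part of this share in the spread of these genes was not tested.

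Cldn15, a pore for sodium along crypts and villi, was at 60.4, 78.0 and 230.1 CPM in control mice, 65.4, 61.0 and 193 CPM in model mice, 200.4, 68.9 and 53.8 CPM in Rhy mice, and 27.9, 87.0 and 28.7 CPM in DXM mice. Its high libraries were control 3, model 3 and Rhy 1, at 193 to 230.1 CPM, which are those low in Hoxb13, and the other 9 libraries were at 27.9 to 87.0 CPM. Cldn2 did not separate in this way, at 70.1 to 167 CPM in the 3 libraries and 4.19 to 109 CPM in the other 9. The groups of Cldn2 and Cldn15 overlapped in all 6 comparisons, and for neither gene was an unadjusted p under 0.05 in edgeR with all 12 libraries. For Cldn2 this turned on control 3. Without control 3 it was called in all 4 comparisons against control, where 16.2% (model), 16.9% (Rhy), 20.2% (DXM) and 21.3% (DSS-exposed groups together) of all genes were called. The 2 remaining control libraries, at 4.19 and 25.7 CPM, lay below every DSS-exposed library, of which the lowest was at 28.7 CPM. Cldn2 was called in the same 4 comparisons when all 3 libraries low in Hoxb13 were left out, beside 15.6% (model) to 24.9% (DSS-exposed groups together) of all genes. With the epithelial level as a covariate, both genes were called for DXM against model (11.8% of all genes), Cldn2 for Rhy against control (14.1%) and Cldn15 for DXM against control (16.5%). Cldn15 was also called for DXM against control without control 1 (23.5% of all genes) or DXM 2 (14.6%), by DESeq2 (12.2%) and with any gene that had a count kept (12.3%). For DXM against model it was called without DXM 2 (9.2%) and with any gene that had a count kept (5.86%).

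**Figure D5:**
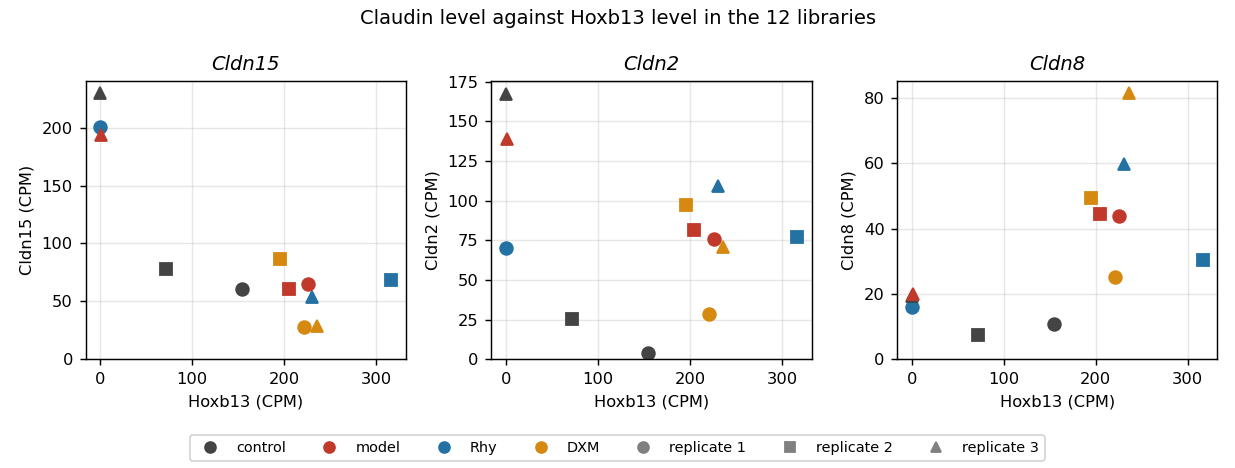
Cldn15, Cldn2 and Cldn8 in CPM (y axes) against Hoxb13 in CPM (x axes), with 1 point per library, coloured by group and shaped by replicate number. The 3 libraries at 0 to 1.49 CPM of Hoxb13 hold Cldn15 at 193 CPM or more, and the other 9 hold it at 87.0 CPM or less.

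Cldn5, which seals the endothelium of blood vessels, was at 7.11, 9.11 and 2.74 CPM in control mice, 3.03, 2.79 and 4.35 CPM in model mice, 3.85, 10.8 and 4.19 CPM in Rhy mice, and 21.3, 4.19 and 11.1 CPM in DXM mice. DXM 1 and DXM 3 were the highest of all libraries, and DXM 2 fell within the model group. For DXM against model, the log2 fold change was 1.84 ± 0.62 (edgeR adjusted p = 0.622) and 1.17 without DXM 1, where an unadjusted p under 0.05 was lost. Of 10 other endothelial genes, all were higher in DXM than in model by fold, with a median of 0.84 on the log2 scale, and 5 had an unadjusted p under 0.05 against 7.69% of all genes, among them the receptor Tek (1.52 ± 0.42) and the adhesion molecule Esam (1.28 ± 0.43). The summed level of those 10 genes was 90.9 to 104 CPM in the model group and 109 to 225 CPM in the DXM group. The 8 smooth muscle markers were higher by fold as well, with 4 at an unadjusted p under 0.05 and a summed level of 4007 to 5134 CPM in the model group and 5516 to 9653 CPM in the DXM group. The part of vessel or muscle content in the Cldn5 difference was not tested.

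Claudins are held at the junction by scaffold proteins and work beside other adhesion proteins. Of 25 scaffold, adhesion and regulatory genes of the tight junction, 23 were lower by fold in model than in control, and 7 of them had an unadjusted p under 0.05, all lower, beside 9.62% of all genes. These included the adhesion receptor Cxadr (-0.67 ± 0.18), the protease inhibitor Spint1 (-0.98 ± 0.30), the polarity scaffold Mpp5 (-0.62 ± 0.20) and Tjp1, which encodes ZO-1 (-0.63 ± 0.21). The median log2 fold change of the 25 was -0.38, against 0.01 over all genes. For Rhy against model 0 of the 25 had an unadjusted p under 0.05 with edgeR, beside 3.72% of all genes, and the median was 0.09. For Rhy against control 4 of 25 had one, all lower, beside 11.6% of all genes, with a median of -0.36, and Spint1 (-0.83 ± 0.30) had the smallest p.

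For DXM against control 16 of the 25 were lower and 1 was higher at an unadjusted p under 0.05, with a median of -0.66, beside 18.9% of all genes in either direction. Those of smallest p were the adhesion molecule F11r (-0.96 ± 0.20), Mpp5 (-0.77 ± 0.20), occludin, Ocln (-0.85 ± 0.22), and the scaffold cingulin, Cgn (-0.81 ± 0.22). For DXM against model 4 of 25 had an unadjusted p under 0.05, beside 7.69% of all genes. Lower were Marveld2 (-0.60 ± 0.19), which encodes tricellulin, and F11r (-0.60 ± 0.20), and higher were Jam3 (0.90 ± 0.38) and Jam2 (0.40 ± 0.18), adhesion molecules of endothelium. For the DSS-exposed groups together 15 were lower and 0 higher, beside 17% of all genes. None of these partners had an adjusted p under 0.05 with edgeR. The 13 epithelial markers had median log2 fold changes of -0.27 for model, -0.14 for Rhy and -0.51 for DXM against control, and Epcam is in both lists. By fold, 11 were lower for model, 11 for DXM and 8 for Rhy, where 5 were higher. The summed level of the markers had a median of 27477 CPM in the Rhy group and 27055 CPM in the control group. The part of epithelial content in the junction genes was not tested.

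Across the 12 libraries, the 5 genes whose log2 CPM followed each claudin most closely differed from member to member. Cldn3 was followed by Crb3, a polarity protein of the junction (Pearson r = 0.98), Gm7353, Gpa33, H2-D1 and Cblc (r of 0.96 or more), and Cldn7 by Rhod (0.96), Gpa33, Cblc, Tradd and Misp (0.95 or more). Gpa33, an epithelial surface antigen, and Cblc were thus in both lists. Cldn23 was followed by Endod1 (0.96), the dicarboxylate transporter Slc13a2, Kif27, Gpr107 and Trim62. Cldn8 was followed by Acss2 (0.96) and Fads2, enzymes of lipid metabolism, the transporter Abcc4, Dmd and Ippk. Cldn4 was followed by Gm14584 (0.96), Epop, the mitochondrial carriers Slc25a22 and Slc25a1, and D630033O11Rik. Cldn15 was followed by 2210407C18Rik (0.98), Car8, Kcnh3, Wwc1 and Gm9892, and Cldn2 by Thap12 (0.98), Pitrm1, Skiv2l2, Etf1 and Ostc. Cldn5 was followed by Ccl21c (0.92), Npr1, Trpv4, Tgfb1i1 and the endothelial gene Egfl7. Cldn1 was followed by Fzd7 (0.92), Frem2, Ubxn8, Pi15 and the matrix gene Lum, and Cldn12 by Pdxdc1 (0.94), Yipf6, Ep400, Atm and Npat. These values describe 12 libraries that share groups and tissue composition, and carry no test.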

How the data were processed

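The authors deposited raw read counts per gene, together with FPKM values, which are the same counts scaled by the authors for gene length and library size. The submitters' processing notes name HISAT2 2.0.5, featureCounts 1.5.0-p3, DESeq2 1.16.1 and the build mm10; the annotation, the use of strand and any read filter are not given in the sources used here, so a gene overlapping another on the opposite strand is uncertain.

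Genes with enough counts by edgeR's filterByExpr (minimum count 10) were kept, 16904 of 54532, of which 24548 had no count. The groups were compared by the two-sided quasi-likelihood test of edgeR 4.0.16 in R 4.3.3, in 1 fit of all 12 libraries with TMM scaling, and with Benjamini-Hochberg adjustment over all 16904 genes in each of 6 comparisons. The standard error was the size of the log2 fold change divided by the square root of F. CPM carries no prior count, and log2 CPM for spreads and likeness a prior count of 2. FPKM was used for levels between genes and, with limma 3.58.1, for alternatives on log2(FPKM + 1) and log2(FPKM + 0.1). DESeq2 1.42.0 was another alternative, beside RLE and upper-quartile scaling, only the groups compared, a filter that kept any gene with a count, a replicate block, the Hoxb13 level as a covariate, model 1 and model 2 summed, and each library left out. Added after the data were seen were the epithelial level as a covariate, the 3 libraries low in Hoxb13 left out, and a replicate block in a fit of only control and model. Exact permutation tests were computed for the 10 claudins on log2 CPM. The scripts were tested on simulated data.

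The members and lists were chosen with earlier results of these data known, and the lists come from general knowledge. All 10 members were named with their values; a fold change was printed where its unadjusted p was under 0.05 or its groups did not overlap, and for Cldn4 in every comparison. For each member the 5 genes of highest Pearson correlation were named, and of a list up to 4 genes by smallest p. Promoter windows came from RefSeq (GRCm38.p6), matched by symbol for 8 of the 10 members, not for Cldn8 and Cldn23. Depth was 14346478 to 17749716 counts a library, and 0 columns belonged to samples outside the list.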

Additional observations from a re-analysis of the deposited data

How the results depend on the processing

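No adjusted call was made with edgeR in the main fit, so the counts at an unadjusted p under 0.05 are what could move. Percentages in brackets give the share of all genes called in the same fits, which moved as well. For model against control, 3 claudins were called (9.62%), with 1 when model 1 and model 2 were summed (4.99%). The epithelial level as a covariate gave 0 (4.6%). Leaving a library out gave 1 to 5 (5.12% to 16.2%). For Rhy against model, 1 was called (3.72%), with 0 in a fit of only the groups compared (5.19%), where Cldn1 did not pass the filter. With a library left out there were 1 to 2 (1.67% to 6.13%). For DXM against model, 3 were called (7.69%), with 1 by limma on log2(FPKM + 1) (7.94%) and 1 to 3 with a library left out (3.11% to 9.2%). For Rhy against control, 2 were called (11.6%), with 1 in a fit of only the groups compared (6.36%), where Cldn1 again did not pass the filter. DESeq2 called 4 (7.90%), the epithelial covariate 4 (14.1%), and the fit without the libraries low in Hoxb13 called 5 (21.5%). With a library left out there were 1 to 5 (6.87% to 16.9%). For DXM against control, 5 were called (18.9%), and 3 to 7 with a library left out (9.48% to 23.5%). The epithelial covariate gave 4 (16.5%), namely Cldn5, Cldn12, Cldn15 and Cldn23, of which Cldn23 alone was among the 5. For the DSS-exposed groups together, 4 were called (17%), with 2 under the epithelial covariate (12.8%) and 2 to 5 with a library left out (10.2% to 21.3%).

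At an adjusted p under 0.05, genes with any count gave 1 claudin (Cldn23) for DXM against control, beside 0.0434% of all genes in that fit, and 1 (Cldn23) for the DSS-exposed groups together, beside 0.147%. DESeq2 gave 4 and 3, beside 3.54% and 2.5%, and leaving out the libraries low in Hoxb13 gave 2 for the latter (Cldn3 and Cldn8), beside 2.03%. Cldn4 turned direction for model against control with the epithelial covariate (0.0225) and between libraries left out (-0.59 to 0.13), and for DXM against model between libraries left out (-1.34 to 0.0241). The cause was not tested. Cldn8 and Cldn23 in the DSS-exposed groups together kept their direction and an unadjusted p under 0.05 in 23 of 23 alternatives, and RLE scaling called as many claudins as TMM in each of the 6 comparisons. Same-numbered libraries had correlations of deviations of -0.31 to 0.36, with 6 of 18 above 0.1, so over the 4 groups the numbers did not pair the samples; the 3 pairs of control with model were all above 0.1 (0.21, 0.10 and 0.36). At an unadjusted p under 0.05, a replicate block over all libraries gave 3 claudins for model against control, beside 10.8% of all genes. It gave 3 for Rhy against control, beside 12.4%, and 5 for the DSS-exposed groups together, beside 17.6%. A block in a fit of only control and model, added after the data were seen, gave 3 as well, beside 10.6% of all genes, with Cldn2 in place of Cldn3.

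Groups of 3 with exact p-values of 0.1 or more, the closeness of model 1 and model 2, the unknown position of each colon piece and the few reads of Cldn1 limit these comparisons. The epithelial level differed between the groups, so its part and that of the groups cannot be told apart.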

Other observations

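Outside the 10 genes, the table held 25 further claudin genes, and 15 of them had no read in any library. Cldn14, best known for limiting calcium passage in the kidney and for hearing, was the only one with a mean of 1 CPM or more. Its level was 2.62, 1.53 and 1.10 CPM in control mice, 1.65, 0.485 and 0.477 CPM in model mice, 0.514, 5.55 and 2.72 CPM in Rhy mice, and 3.91, 3.90 and 5.67 CPM in DXM mice. The DXM libraries were all above the control and model libraries, and the Rhy libraries spread over the range of the other groups.

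Among the 10 genes themselves, Cldn3, Cldn7 and Cldn23 had the most alike patterns over the 12 libraries, with Pearson r of 0.94 for Cldn3 with Cldn7 and 0.89 for Cldn23 with each of them. Cldn8 ran opposite to these 3 genes, with r of -0.86, -0.85 and -0.83. These are descriptions over libraries that share groups and tissue composition.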
